A study of Homo sapiens with 16 samples.

Results

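Collagen receptors are the proteins through which an epithelial cell senses collagen, and 7 of their genes, *DDR1*, *DDR2*, *ITGA1*, *ITGA2*, *ITGA10*, *ITGA11* and *ITGB1*, were examined in RNA-seq of MCF10A cells. They were taken by gene symbol, with no threshold on their values, and are 7 of the 26475 genes in the count table, where each symbol occurs once. MCF10A is an established line of human breast epithelium that became immortal in culture and does not form tumours. The 16 libraries were 4 each of 4 groups. The control received DMSO and 2 changes of normal medium without collagen, and the collagen group received DMSO and collagen I. The other 2 groups received collagen I with an inhibitor, either the DDR1 kinase inhibitor DDR1-IN-1 (DDR1i) or a small molecule that blocks the binding of RUNX transcription factors to CBFβ (RUNXi). Per the study's methods, cells spent 48 h with 2 μM DDR1i or 5 μM RUNXi, of which the final 24 h were with 0.05 mg/mL collagen. The collagen medium also held NaOH for polymerization and the control medium did not, so that effects of the pair cannot be told apart. All cells were of 1 line on plastic plates, in medium with insulin, EGF, hydrocortisone, cholera toxin and horse serum.

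DDR1 and DDR2 are receptor tyrosine kinases that bind triple-helical collagen directly and signal slowly and for a long time. The integrin alpha subunits encoded by *ITGA1*, *ITGA2*, *ITGA10* and *ITGA11* carry an inserted collagen-binding domain, and each pairs only with the beta subunit encoded by *ITGB1*. That beta subunit also pairs with alpha subunits for laminin and fibronectin, so that its transcript is not specific to collagen receptors. In breast epithelium, DDR1 and the pair formed by ITGA2 and ITGB1 are the best known collagen receptors, whereas DDR2 and ITGA11 are best known from fibroblasts and other mesenchyme.

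Total counts ranged from 12184619 to 44332378 per library. Values are given as normalized CPM, read counts scaled to a common library size with edgeR's TMM method. The labelled cell type fitted its markers, since all 7 basal mammary markers listed (among them *KRT5*, *KRT14* and *TP63*) had a median of at least 1 CPM. Of 7 fibroblast and mesenchymal markers 2 did, *DCN* and *COL1A1*, with a summed level of 9.02 to 28.8 CPM in control, 10.8 to 32.9 with collagen, 5.42 to 17.4 with DDR1i and 7.52 to 20.3 with RUNXi. Of 4 mature luminal markers 2 reached 1 CPM (*GATA3* with a median of 12.8 and *FOXA1* with 5.42), of 4 leukocyte and platelet markers 1 (*CD68*, 19.3) and of 3 endothelial markers 0. *COL3A1* (mesenchyme), *CDH5* (endothelium), *GP9* (platelets) and *PGR* (luminal cells) had 0 counts in all 16 libraries, and *PTPRC* (leukocytes) had 1 in all. *KRT14* fell with DDR1i against collagen (log2 fold change -0.90, adjusted p = 0.00123, edgeR quasi-likelihood test, Benjamini-Hochberg adjusted), and the summed basal markers were 11700 to 17100 CPM with DDR1i and 15600 to 22000 with collagen. *KRT18*, 1 of 4 general epithelial markers, fell with RUNXi against collagen (-0.46, adjusted p = 0.0419, same edgeR test; not called with collagen replicate 3 included, adjusted p = 0.322), and the sum of the 4 was 584 to 629 CPM with RUNXi and 592 to 782 with collagen. The part of these markers in the results was not tested. Fewer cells of a type and less RNA per cell cannot be told apart in bulk libraries. The labels do not say that replicates were separate cultures, so that p-values measure the spread between these libraries, which may be technical.

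A pair of collagen libraries bears on the results. Collagen replicate 3 was removed by the authors as an outlier; it was left out of the main tests, and its value is given apart. Over 13518 genes, the median absolute log2 difference of this library was 0.307 from the mean of the other 3 collagen libraries, 0.163 from that of DDR1i, 0.177 from control and 0.183 from RUNXi. For collagen replicate 4 it was 0.334 from the mean of collagen replicates 1 and 2 and from 0.372 to 0.426 from the other groups. For collagen replicates 1 and 2 it was 0.282 and 0.237 from the mean of the other 2 collagen libraries tested. From the nearest other group, DDR1i, it was 0.287 and 0.256. These collagen means differ in their libraries, since that for replicate 3 includes replicate 4. The root mean square log2 difference from the same collagen means gave another order. It was 0.918 for replicate 1, 0.82 for replicate 2, 0.69 for replicate 3 and 0.748 for replicate 4. Which of collagen replicates 3 and 4 better stands for collagen treatment cannot be told from the counts, and it bears on every difference from collagen alone. Collagen replicate 4 was kept, but stood apart in its balance of long and short transcripts. The median log2 CPM of long genes (canonical transcript of at least 5132.5 bases) less that of short genes (at most 1939.25 bases), each relative to its mean over the 15 libraries without collagen replicate 3, was -0.72 in collagen replicate 4, from -0.23 to 0.29 in the other 15 libraries, and 0.16 in collagen replicate 3. Canonical transcripts are 10736 bases for *ITGA1*, 7843 for *ITGA2*, 5130 for *ITGA10*, 3836 for *DDR1* and 3735 for *ITGB1*. Collagen replicate 4 was the lowest of the 4 collagen libraries for *ITGA1*, *ITGA2*, *ITGA10* and *ITGB1*, 4 of the 5 members measured in all groups, against 29.1% of 13518 genes. The part of transcript length in the results was not tested other than by removing its trend.

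The regions upstream of 3 integrin genes are shown, because *ITGA2* and *ITGB1* varied together over the libraries, while the correlations of *ITGA10* with them did not pass the test. Each is the 250 bases before an annotated transcript start in RefSeq (GRCh38.p14), read 5′ to 3′ on the strand of the gene: chr5:52989102-52989351 on the plus strand for *ITGA2*, chr10:32958231-32958480 on the minus strand for *ITGB1* and chr1:145910051-145910300 on the minus strand for *ITGA10*. Capitals mark the GC box GGGCGG on either strand (CCGCCC on the other).
ITGA2: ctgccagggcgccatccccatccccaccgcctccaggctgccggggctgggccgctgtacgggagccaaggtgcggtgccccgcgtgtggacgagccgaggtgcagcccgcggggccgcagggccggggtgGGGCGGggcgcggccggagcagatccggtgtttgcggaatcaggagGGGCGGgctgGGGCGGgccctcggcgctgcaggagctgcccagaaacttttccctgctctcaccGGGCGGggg
ITGB1: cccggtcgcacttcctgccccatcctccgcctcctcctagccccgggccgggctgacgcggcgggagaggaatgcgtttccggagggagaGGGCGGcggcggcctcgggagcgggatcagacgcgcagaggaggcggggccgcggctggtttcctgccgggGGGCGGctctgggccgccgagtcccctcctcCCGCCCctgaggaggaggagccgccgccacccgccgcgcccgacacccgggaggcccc
ITGA10: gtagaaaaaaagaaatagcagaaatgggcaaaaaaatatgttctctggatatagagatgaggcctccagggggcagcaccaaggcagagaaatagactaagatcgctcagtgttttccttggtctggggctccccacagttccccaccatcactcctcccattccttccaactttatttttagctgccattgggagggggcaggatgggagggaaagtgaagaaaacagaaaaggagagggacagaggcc
The *ITGA2* window held 4 GC boxes and the *ITGB1* window 3, whereas 42.6% of 35116 such windows in the table held at least 1 and 13.9% held at least 3. RefSeq has another start for *ITGB1*, whose window (chr10:32935559-32935808) held none, with 41.6% GC. GC boxes were not particular to the pair that varied together. A window of *DDR1* (chr6:30884730-30884979), whose correlations with both were near 0, held 3 as well, with 69.2% GC. Its other windows held at most 1. The *ITGA10* window held none, and its GC content of 48.4% compared with 76.4% for *ITGA2* and 78.4% for the *ITGB1* window printed. The letters TGTGGT, a form of the RUNX core motif that reads ACCACA on the other strand, were in none of the 17 promoter windows of the 7 genes. They were in 13.074% of all 35116 windows, each of 250 bases before to 50 after a start. Other forms of the core motif were not counted, and the *ITGA2* window printed holds TGCGGT, another form. These are matches of letters only.

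Which collagen receptors the cells transcribe was read from CPM per kb of canonical transcript, the scale on which genes can be compared. The order of the medians over 16 libraries was *ITGB1*, *DDR1*, *ITGA2*, *ITGA10*, *ITGA1*, *DDR2* and *ITGA11*. *ITGB1* had 123 CPM per kb (from 49.0 to 149) and *DDR1* had 34.6 (from 28.3 to 42.5). *ITGA2* had 9.27 CPM per kb (from 3.94 to 13.5), *ITGA10* had 4.32 (from 0.953 to 10.1) and *ITGA1* had 1.06 (from 0.504 to 1.35). The ranges of *ITGA2* and *ITGA10* overlapped, and *ITGA2* was above *ITGA10* in 15 of 16 libraries, the exception being RUNXi replicate 3. The ranges of *ITGA10* and *ITGA1* overlapped as well, although *ITGA10* was above *ITGA1* in each library. Among 13170 genes with a transcript length, *ITGB1* stood above 95% by mean level, *DDR1* above 83.3%, *ITGA2* above 55.4%, *ITGA10* above 39.2% and *ITGA1* above 18.2%. With the union of exons as the length the order was unchanged, with 31.5 CPM per kb for *ITGB1*, 14.5 for *DDR1* and 9.21 for *ITGA2*. The gap between *DDR1* and *ITGA2* was smaller on that scale than with the canonical transcript.

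**Figure D1:**
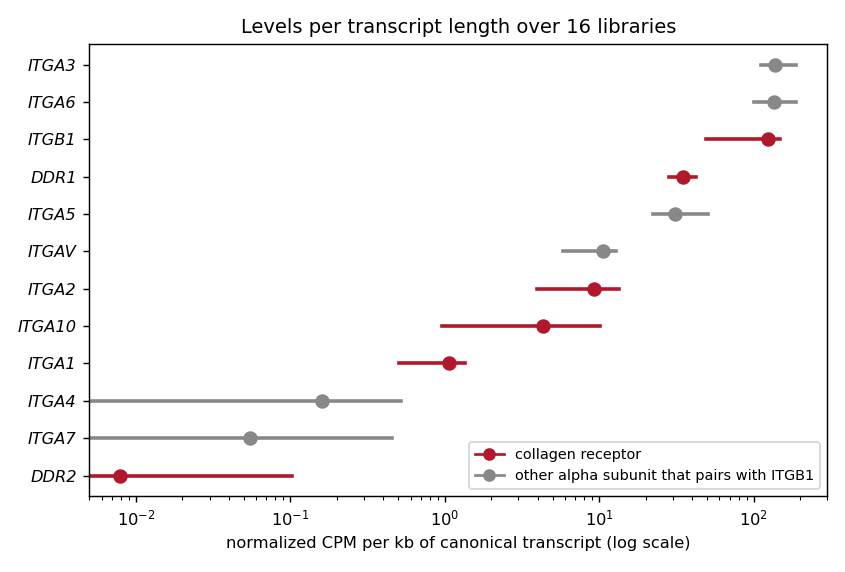
Median (point) and range (bar) over 16 libraries of normalized CPM per kb of canonical transcript, on a log axis, for 6 collagen receptor genes (red) and 6 other genes for alpha subunits that pair with ITGB1 (grey); ITGA11, ITGA8 and ITGA9, with medians of 0, are not drawn. ITGB1 lies level with ITGA3 and ITGA6, while ITGA2 at 9.27 lies far below them.

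Of the DDR pair, *DDR1* provided nearly all transcripts, at least 99.7% of the sum per kb in each library. *DDR2* had 87 counts in all, from 8 libraries, and at most 25 in 1 library (RUNXi replicate 1). *ITGA11* had 14 counts in 2 libraries, 12 in collagen replicate 1 and 2 in control replicate 4. A count of 0 allows up to 3 counts, which is from 0.0663 to 0.24 CPM in the control libraries that were sequenced the most and the least, and these limits cover counting error only. Neither gene passed the filter on low counts in the main fits, so that 5 of the 7 genes were tested.

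The collagen-binding alpha subunits were a small share of the alpha subunits that can pair with ITGB1. They made up 2.15% to 5.58% of the summed CPM per kb of 12 such genes, with a median of 4.49%. The 2.15% was collagen replicate 4; with RUNXi all 4 libraries lay between 4.56% and 5.58%. *ITGA3* and *ITGA6*, which encode alpha subunits of laminin receptors, had 137 and 136 CPM per kb, and *ITGA5*, of the fibronectin receptor, had 30.7. Among the 4 collagen-binding alpha subunits, *ITGA2* made up a median of 63.7% (from 44.9% to 79.0%), *ITGA10* 29.2% (from 10.7% to 51.6%) and *ITGA1* 6.96% (from 3.54% to 11.9%).

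Each of 6 comparisons was tested across all genes with the quasi-likelihood test of edgeR and Benjamini-Hochberg adjustment, and a gene was called when its adjusted p was under 0.05. Whether the ligand changes the transcripts of its own receptors was asked of collagen against control. Of the 5 genes tested 0 were called, against 0% of 13092 genes; at an unadjusted p under 0.05 1 of the 5 passed (*ITGB1*, lower) with 13.4% of all genes, and DESeq2 called 414 genes in all (5.81%) and 0 of the 3 members to which it gave an adjusted p. Whether the inhibitors change them was asked against collagen alone. DDR1i gave 0 of 5 called, against 2.47% of 13548 genes, with 2 of 5 at an unadjusted p under 0.05 (*ITGA2* and *ITGB1*, both higher; 18% of all genes) and the same pair was called by DESeq2, which gave an adjusted p to 4 of the 5 (10.2% of all genes). RUNXi gave 1 of 5 called, *ITGA2*, against 4.05% of all genes, with 3 of 5 at an unadjusted p under 0.05 (*ITGA10* also; 21.1% of all genes), and DESeq2 called 2 of 5 (*ITGA2* and *ITGB1*; 11.1%). With collagen replicate 3 included 0 of 5 were called with either inhibitor, against 0.0674% of genes with DDR1i and 0.449% with RUNXi. These comparisons share the same 3 collagen libraries. Of the genes whose groups did not overlap, *ITGB1* was the 1 member lower with collagen than in control (6.95% of 13518 genes were lower without overlap), and *ITGA2* and *ITGB1* were higher without overlap with DDR1i (8.46% of genes) and with RUNXi (9.48%).

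**Figure D2:**
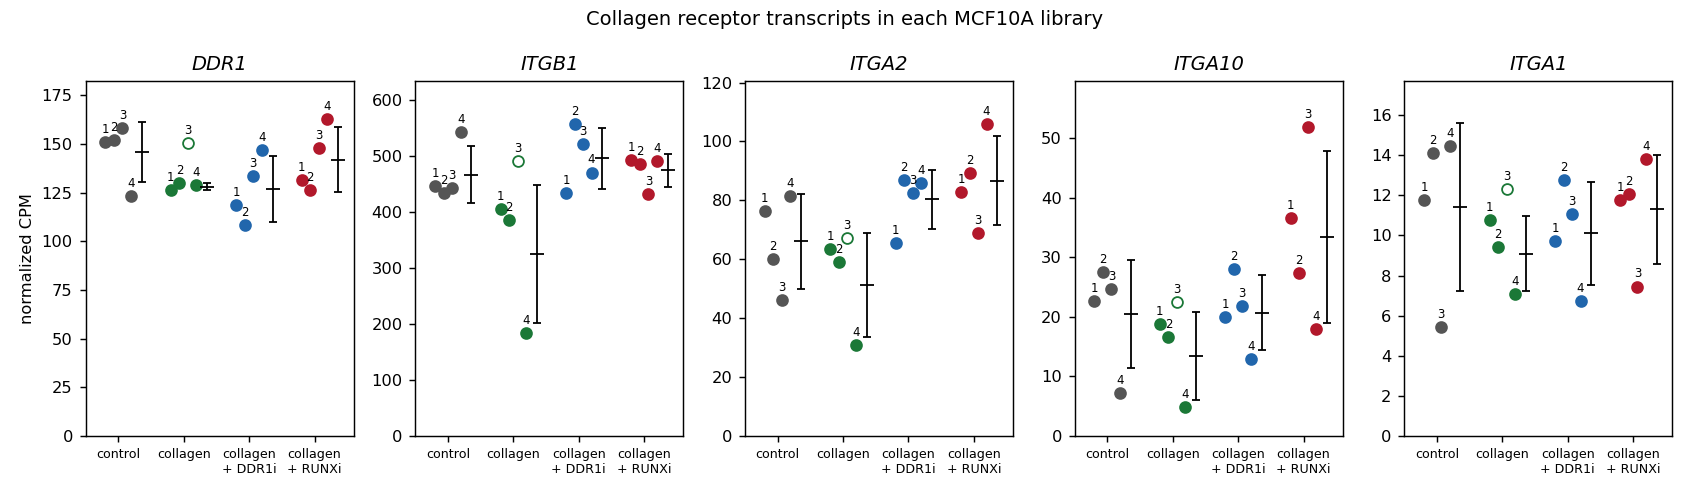
Normalized CPM of the 5 tested genes in each library (points, numbered by replicate) with the mean and SD of each group (bars); the open green point is collagen replicate 3, which is outside the mean, SD and tests. Collagen replicate 4 is the lowest collagen library in every panel but that of DDR1, and the RUNXi values of ITGA2, from 69.0 to 105.8 CPM, lie above all collagen points.

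*DDR1*, which encodes the kinase that DDR1i targets, has 18 exons in its canonical transcript and lies on the plus strand of chromosome 6 from 30844198 to 30867933 (GRCh37). Its values in control were 151, 152, 158 and 123 CPM in replicates 1 to 4. With collagen they were 127, 130.1 and 129 CPM in replicates 1, 2 and 4 and 151 in replicate 3. With DDR1i they were 118.5, 108, 134 and 147 CPM, and with RUNXi 132, 126, 148 and 163. The groups overlapped in every comparison, and control replicate 4 was lower than each collagen library. The log2 fold change was -0.18 with collagen against control (95% confidence interval -0.46 to 0.11), -0.02 with DDR1i against collagen (-0.28 to 0.24) and 0.14 with RUNXi against collagen (-0.12 to 0.40), and none was called (adjusted p = 0.636, 0.966 and 0.579, edgeR quasi-likelihood test, Benjamini-Hochberg adjusted). On the linear scale, the interval for DDR1i runs from 0.822-fold to 1.18-fold. An inhibitor of the kinase's activity need not alter its transcript, so that *DDR1* counts do not check the treatment.

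*DDR2*, which encodes the other collagen-binding kinase, lies on the plus strand of chromosome 1 from 162601163 to 162757195 (GRCh37). Its counts were 13, 0, 0 and 8 in control, 12, 0, 9 and 4 with collagen, 8, 8, 0 and 0 with DDR1i and 25, 0, 0 and 0 with RUNXi. Every group held at least 1 library at 0 and at least 1 with counts, and *DDR2* did not pass the filter on low counts. Without that filter it was called in none of the 6 comparisons, with standard errors of its log2 fold change from 1.79 to 2.02, so that no difference was detectable at this depth.

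*ITGB1*, the shared beta subunit, lies on the minus strand of chromosome 10 from 33176201 to 33294720 (GRCh37). Its values were 447, 433, 443 and 544 CPM in control, and 406, 386 and 183 in collagen replicates 1, 2 and 4. Collagen replicate 3 had 491 CPM. With DDR1i the values were 434, 558, 521 and 471 CPM, and with RUNXi 493, 487, 432 and 491. The 3 collagen libraries tested lay below every library of the other groups, whereas collagen replicate 3 lay above 3 of the 4 control libraries. The log2 fold change was -0.51 with collagen against control (95% confidence interval -0.97 to -0.06), 0.61 with DDR1i against collagen (0.19 to 1.03) and 0.54 with RUNXi against collagen (0.12 to 0.97). None of them was called (adjusted p = 0.300, 0.112 and 0.128, edgeR quasi-likelihood test, Benjamini-Hochberg adjusted). Without collagen replicate 4, these were -0.23 (adjusted p = 0.734), 0.33 (adjusted p = 0.186) and 0.27 (adjusted p = 0.283, same edgeR test). With that library kept and without collagen replicate 1, the log2 fold change with DDR1i was 0.79 and was called (adjusted p = 0.0413, same edgeR test). With RUNXi it was called without collagen replicate 1 as well (0.72, adjusted p = 0.0440, same edgeR test).

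*ITGA2*, the alpha subunit of the main collagen-binding integrin of epithelia, was the 1 member called. It lies on the plus strand of chromosome 5 from 52285170 to 52390609 (GRCh37) and has 30 exons in its canonical transcript. Its values were 76.4, 60.2, 46.2 and 81.3 CPM in control, and 63.3, 59.0 and 30.9 in collagen replicates 1, 2 and 4. Collagen replicate 3 had 67.2 CPM. With DDR1i the values were 65.6, 87.0, 82.5 and 86.0 CPM, and with RUNXi 82.9, 89.2, 69.0 and 105.8. The RUNXi libraries were above all 4 collagen libraries, replicate 3 included, whereas DDR1i replicate 1 was below collagen replicate 3. The mean was 51.1 ± 17.6 CPM (SD, n = 3) with collagen. It was 80.3 ± 9.99 CPM with DDR1i, 86.7 ± 15.3 CPM with RUNXi and 66.0 ± 16.02 CPM in control (SD, n = 4 each).

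*ITGA2* rose with RUNXi against collagen by 0.76 on the log2 scale (standard error 0.20, 95% confidence interval 0.35 to 1.18, adjusted p = 0.0368, edgeR quasi-likelihood test, Benjamini-Hochberg adjusted), which is 1.695-fold (1.27 to 2.26). With DDR1i the log2 fold change was 0.65 (0.24 to 1.07), and it was not called by the same edgeR test (adjusted p = 0.0801), while DESeq2 called it (adjusted p = 0.0262). The RUNXi call was lost, with the same direction, when collagen replicate 3 was included (log2 fold change 0.64, adjusted p = 0.179), when the trend with transcript length was removed (0.53, adjusted p = 0.104) and without collagen replicate 4 (0.51, adjusted p = 0.128), all in edgeR. It was lost as well without RUNXi replicate 1 (0.78, adjusted p = 0.0560), replicate 2 (0.75, adjusted p = 0.0750) or replicate 4 (0.65, adjusted p = 0.0891, same edgeR test). Without collagen replicate 4 the DDR1i difference was 0.40 (adjusted p = 0.267, same edgeR test). It was called without collagen replicate 1 (0.83, adjusted p = 0.0387) or DDR1i replicate 1 (0.73, adjusted p = 0.0400, same edgeR test). With collagen against control, the log2 fold change was -0.37 (-0.88 to 0.15; -0.11 without collagen replicate 4), and collagen replicates 1 to 3 all lay inside the range of the control libraries.

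**Figure D3:**
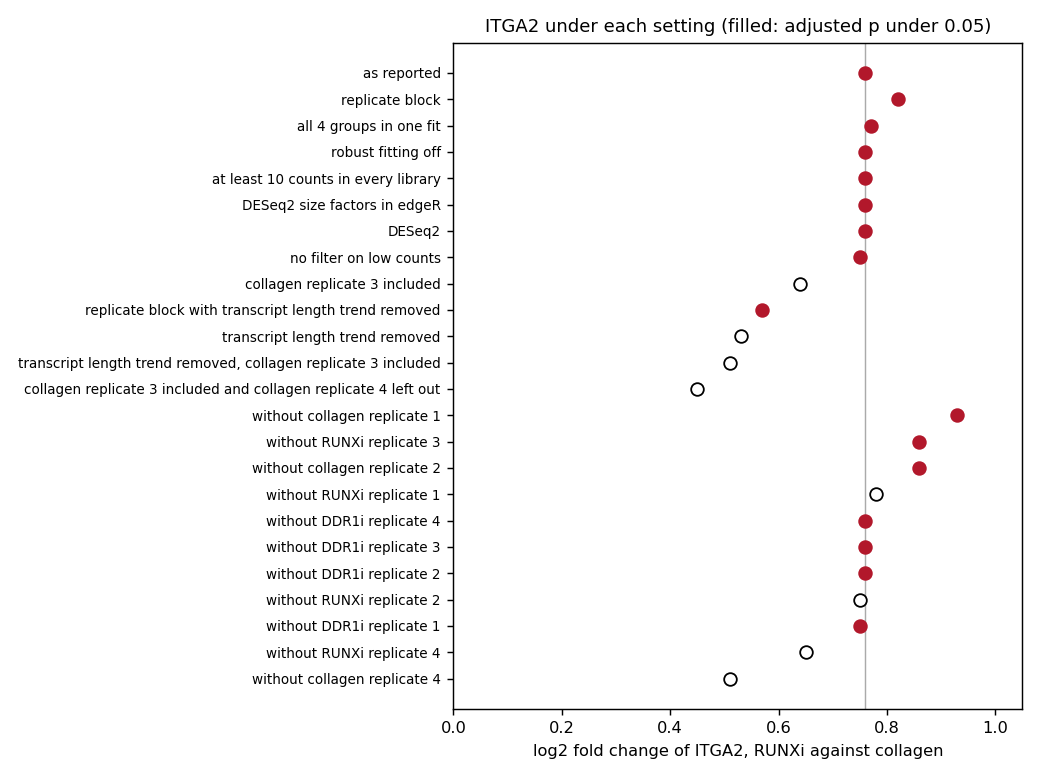
Log2 fold change of ITGA2 with RUNXi against collagen (horizontal axis) as reported and under each alternative (vertical axis), filled where the adjusted p was under 0.05; the grey line is the reported value of 0.76. All values are above 0, the lowest being 0.45 with collagen replicate 3 included and replicate 4 left out, and the open points include those with collagen replicate 3 included, those without collagen replicate 4 and the length trend removed without a replicate block, whereas those without collagen replicate 1 or 2 are filled.

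*ITGA10* encodes an alpha subunit best known from cartilage, and lies on chromosome 1 from 145524969 to 145543868 (GRCh37). Its values were 22.6, 27.6, 24.7 and 7.20 CPM in control, 18.8, 16.5 and 4.89 in collagen replicates 1, 2 and 4, and 22.5 in collagen replicate 3. With DDR1i they were 19.9, 28.1, 21.8 and 12.9 CPM, and with RUNXi 36.5, 27.3, 51.8 and 17.9. Replicate 4 was the lowest library of every group, which held for 1.83% of 13518 genes, and the groups overlapped in every comparison. The log2 fold change was 1.31 with RUNXi against collagen (95% confidence interval 0.25 to 2.37, adjusted p = 0.148, edgeR quasi-likelihood test, Benjamini-Hochberg adjusted), the highest of the 5 members and the one with the widest interval. It was 0.63 with DDR1i against collagen (-0.41 to 1.67) and -0.60 with collagen against control (-1.62 to 0.42). Without collagen replicate 4 the 3 values were 0.92 (adjusted p = 0.261, same edgeR test), 0.23 and -0.20. The RUNXi difference was called with a replicate block (1.25, adjusted p = 0.00576, edgeR; adjusted p = 0.00441 with the length trend removed as well), with robust fitting off (adjusted p = 0.0488, edgeR) and without a filter on low counts (adjusted p = 7.45e-07, edgeR), and not by DESeq2 (adjusted p = 0.0757).

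*ITGA1*, which encodes the other widely expressed collagen-binding alpha subunit, one that favours basement membrane collagen, lies on chromosome 5 from 52083750 to 52255039 (GRCh37), directly before *ITGA2*. Its values ran from 5.42 to 14.5 CPM in control, from 7.09 to 12.3 with collagen, from 6.75 to 12.8 with DDR1i and from 7.45 to 13.8 with RUNXi. Each of these groups overlapped the others, and the lowest value was that of control replicate 3. The log2 fold changes were -0.33 with collagen against control (95% confidence interval -1.08 to 0.43), 0.15 with DDR1i against collagen (-0.43 to 0.73) and 0.31 with RUNXi against collagen (-0.27 to 0.89), and none was called. Without collagen replicate 4 they were -0.18, 0.01 and 0.17. Its exons share 499 bases with *PELO* on the same strand and 1385 bases with *ITGA2-AS1* on the other strand, and the sources used here do not give the use of strand, so that reads of these genes may be mixed. *ITGA11*, on chromosome 15 from 68588870 to 68724502 (GRCh37), had 0 counts in all 8 inhibitor libraries, and without the filter it was called in none of the comparisons (lowest adjusted p = 0.195, edgeR, with RUNXi against collagen).

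The inhibitors were also compared with each other and with the control. The collagen libraries are no side of either comparison, but in the first they entered the fit and so its estimate of spread. DDR1i against RUNXi gave 0 of 5 called, against 0.568% of 13548 genes, with 0 of 5 at an unadjusted p under 0.05 (6.19% of all genes) and 0 of 5 by DESeq2 (0.905%). The log2 difference was -0.11 for *ITGA2* (95% confidence interval -0.48 to 0.27), 0.07 for *ITGB1* (-0.32 to 0.45) and -0.16 for *DDR1* (-0.40 to 0.08). For *ITGA10* it was -0.68 with a wide interval (-1.62 to 0.27). Without collagen replicate 4 in the fit, 109 genes in place of 77 were called, still with 0 of the members. The test of RUNXi against collagen called *ITGA2* and that of DDR1i did not, but this difference between the inhibitors was itself not past the threshold. Against control, DDR1i with collagen gave 0 of 5 called (0.212% of 13213 genes), 0 of 5 at an unadjusted p under 0.05 (5.13%) and 0 of 5 by DESeq2 (0.485%). RUNXi with collagen gave 0 of 5 called as well (0.401% of 13213 genes), 1 of 5 at an unadjusted p under 0.05 (*ITGA2*; 6.81%) and 0 of 5 by DESeq2 (1.04%). There the log2 fold change of *ITGA2* was 0.28 with DDR1i (-0.05 to 0.62) and 0.39 with RUNXi (0.05 to 0.73, adjusted p = 0.632, edgeR quasi-likelihood test, Benjamini-Hochberg adjusted). For *ITGB1* it was 0.10 with DDR1i (-0.11 to 0.30) and 0.03 with RUNXi (-0.18 to 0.23), narrower intervals than against collagen. Both comparisons share the 4 control libraries.

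**Figure D4:**
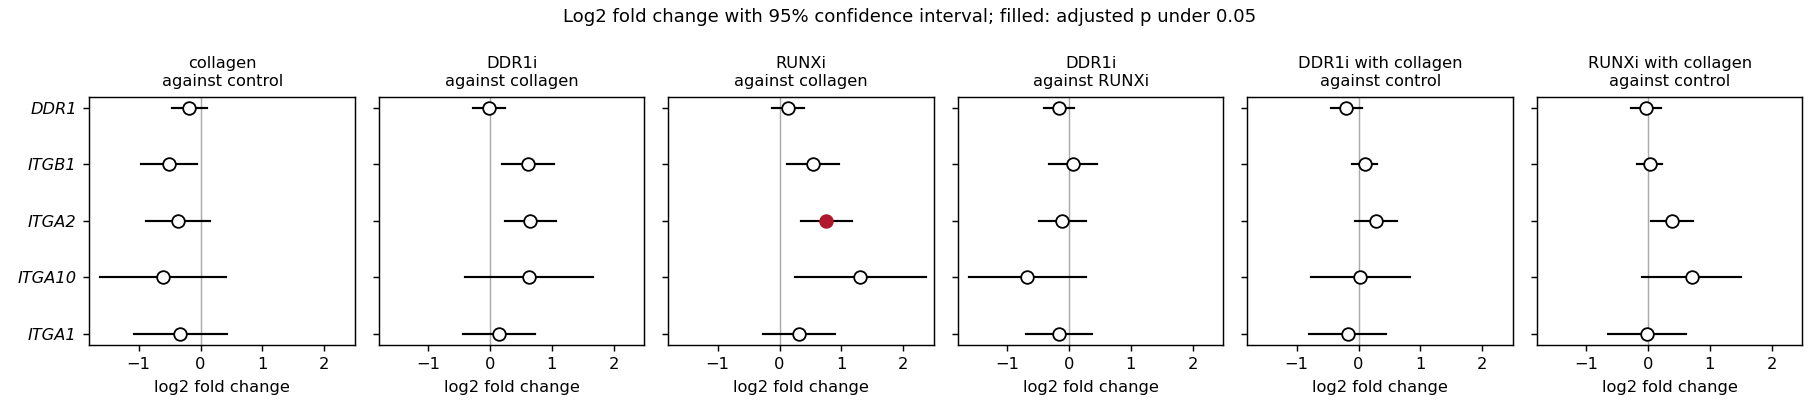
Log2 fold change (horizontal axis) with 95% confidence interval (bar) of the 5 tested genes in 6 comparisons, filled where the adjusted p was under 0.05. The 1 filled point is ITGA2 with RUNXi against collagen, and the ITGB1 intervals that exclude 0 are those of the 3 comparisons with the collagen group.

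*ITGA2* and *ITGB1* encode the 2 chains of one receptor, and their log2 CPM varied together. Over the 15 libraries without collagen replicate 3, Pearson's r was 0.857 (permutation p = 0.00028, adjusted p = 0.0028 over the 10 pairs of members computed) and Spearman's rho was 0.786 (permutation p = 0.00102, adjusted p = 0.0102), in permutation tests that were two-sided with 100000 resamples. Without the 2 libraries farthest from the median of *ITGA2*, control replicate 3 and collagen replicate 4, r was 0.773. It was 0.679 without collagen replicate 4 alone and 0.827 after each group's mean was removed. Of the other 9 pairs, none passed the threshold after adjustment. *DDR1* was near 0 with *ITGA2* (r = -0.00644) and with *ITGB1* (r = -0.00676). The permutation p-values are against no correlation only, and the libraries share depth and the length trend. Other genes had a higher r with each chain, such as *DSG2* with *ITGB1* (0.965) and *DHX40* with *ITGA2* (0.940). The p-values therefore do not show a link particular to this pair.

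**Figure D5:**
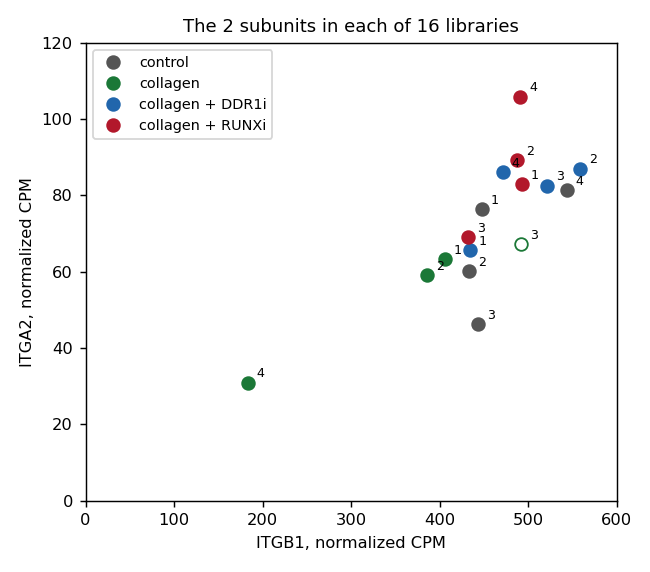
ITGA2 against ITGB1 in normalized CPM, each point a library, coloured by group and numbered by replicate; the open point is collagen replicate 3. Collagen replicate 4 is lowest in both at 183 and 30.9 CPM. The inhibitor libraries lie above and to the right of the filled collagen points, but their ranges overlap those of control. DDR1i replicate 1 lies left of and below collagen replicate 3.

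The genes most like each member were ranked by Pearson's r of log2 CPM over the same 15 libraries, as a description across all tested genes. For *ITGB1* they were *DSG2* (0.965), *CRYBG3* (0.952) and *LRRFIP1* (0.950), and for *ITGA2* they were *DHX40* (0.940), *PHLDB2* (0.913) and *NF1* (0.913). *DDR1* had *AKT2* (0.868), *LRP10* (0.859) and *EEF2* (0.855), *ITGA10* had *OSBPL5* (0.907), *NBR1* (0.896) and *PODXL* (0.873), and *ITGA1* had *TBC1D8B* (0.895), *ATF6* (0.884) and *RB1CC1* (0.876). The points share libraries, depth and the length trend, and of these 15 genes 10 have a canonical transcript of at least 5132.5 bases, as 25% of all genes do.

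Other receptors that bind collagen were read from a list of 6 genes. *CD44* (140 CPM per kb), *ADGRG1* (2.97) and *MRC2* (2.22), which encodes an endocytic collagen receptor, were tested, named after their values were seen, and none was called in any of the 6 comparisons. The share of all genes called in these comparisons was from 0% to 4.05%. *GP6*, *LAIR1* and *OSCAR*, receptors of platelets, leukocytes and osteoclasts, had 8, 1 and 14 counts over all libraries and were not tested. The median log2 fold change of the 3 tested genes was 0.13 with DDR1i and 0.19 with RUNXi against collagen, beside 0.00 and 0.01 over all genes.

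Integrin subunits outside the collagen-binding group were read from lists of 8 alpha and 7 beta genes. Over all 13548 genes tested, 2.47% were called with DDR1i against collagen and 4.05% with RUNXi. Against collagen, 1 of 6 tested alpha genes rose with DDR1i, *ITGA6* (log2 fold change 0.44, adjusted p = 0.0471), and 2 of 6 rose with RUNXi, *ITGA6* (0.59, adjusted p = 0.0106) and *ITGAV* (0.66, adjusted p = 0.0318, all edgeR quasi-likelihood test, Benjamini-Hochberg adjusted). Of the 6 beta genes tested, 1 rose with DDR1i, *ITGB4* (0.58, adjusted p = 0.0226), which pairs with ITGA6 in the laminin receptor of hemidesmosomes. With RUNXi 4 of 6 rose, led by *ITGB8* (1.19, adjusted p = 0.000939) and *ITGB4* (0.66, adjusted p = 0.0107, same edgeR test). The other two, named after their values were seen, were *ITGB5* (0.48) and *ITGB2* (1.14). *ITGB8*, whose product activates latent TGF-β with ITGAV, had 21.0 ± 0.892 CPM (SD, n = 3) with collagen, 48.3 ± 4.73 (SD, n = 4) with RUNXi and 26.2 ± 10.1 (SD, n = 4) in control. It was called with collagen replicate 3 included (1.15, adjusted p = 0.000936) and with the length trend removed (0.91, adjusted p = 0.0109), and it was lower with DDR1i than with RUNXi (-0.77, adjusted p = 0.0288, same edgeR test). None of the others was called against collagen with collagen replicate 3 included. With the length trend removed, *ITGB2* was still called with RUNXi (1.17, adjusted p = 0.0359, same edgeR test). The calls of *ITGA6* (adjusted p = 0.324 with DDR1i and 0.0515 with RUNXi) and *ITGB4* (adjusted p = 0.188 and 0.0814) were lost. So were those of *ITGAV* (adjusted p = 0.168) and *ITGB5* (adjusted p = 0.0961) with RUNXi, by the same edgeR test. The median log2 fold change with RUNXi was 0.15 over the alpha genes and 0.57 over the beta genes, beside 0.01 over all genes; with DDR1i it was 0.48 and 0.42, beside 0.00. Against control, *ITGB2*, best known from leukocytes, rose with RUNXi (1.17, adjusted p = 0.0493, same edgeR test), and neither *ITGB8* nor any alpha gene was called. Of all genes, 0.401% were called there with RUNXi and 0.212% with DDR1i. The *ITGB2* call against control was lost with the length trend removed (1.11, adjusted p = 0.0749) and kept with a replicate block (1.17, adjusted p = 0.00628, same edgeR test).

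Genes that act inside the cell on these receptors were read from lists of 20 integrin activators and adaptors and 18 DDR1 partners and proteases. Their counts stand beside 2.47% of all genes called with DDR1i against collagen and 4.05% with RUNXi. Against collagen, 3 of 19 tested adaptor genes rose with DDR1i, among them *TLN1* (log2 fold change 0.73), which encodes talin, the activator of integrins, and *TNS4* (0.57), a tensin. With RUNXi 3 of 19 rose, led by *FLNA* (0.62), which encodes a filamin that binds beta subunit tails, and *TNS4* (0.47), and 1 fell, *ITGB1BP1* (-0.57, named after its value was seen), whose product binds the tail of ITGB1. Of the 18 DDR1 partners and proteases 2 rose with each inhibitor, *MYH9* (0.89 with DDR1i and 0.64 with RUNXi) and *MYH10* (0.68 and 0.61), the nonmuscle myosin heavy chains. The median was 0.22 over the adaptors and 0.24 over the partners with DDR1i, and 0.14 and 0.24 with RUNXi. None of these genes was called with collagen replicate 3 included, and with the length trend removed *TNS4* with DDR1i and *ITGB1BP1* with RUNXi were. In DDR1i against RUNXi and in each comparison with control, 0 genes of these lists were called. The share of all genes called was 0.568% between the inhibitors. Against control it was 0% with collagen alone, 0.212% with DDR1i and 0.401% with RUNXi.

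Of 11 genes for fibrillar and network collagens, the ligands, 6 were tested. Against collagen, 2.47% of all genes were called with DDR1i and 4.05% with RUNXi. *COL4A1* (1.03, adjusted p = 0.00621) and *COL4A2* (0.90, adjusted p = 0.0104), the main chains of basement membrane collagen, rose with DDR1i against collagen, and *COL4A1* (0.76, adjusted p = 0.0250) and *COL4A6* (0.54, adjusted p = 0.0261, all edgeR quasi-likelihood test, Benjamini-Hochberg adjusted) rose with RUNXi. *COL4A1* had 56.2 ± 11.8 CPM (SD, n = 3) with collagen, 92.6 ± 14.3 (SD, n = 4) in control, 115 ± 35.3 (SD, n = 4) with DDR1i and 145 in collagen replicate 3. With that library included none of the 6 was called. With the length trend removed, *COL4A1* (0.80, adjusted p = 0.0275) and *COL4A2* (0.67, adjusted p = 0.0427, same edgeR test) were still called with DDR1i. With RUNXi, *COL4A1* (0.56, adjusted p = 0.11) and *COL4A6* (0.32, adjusted p = 0.2, same edgeR test) were not. *COL1A1*, a chain of the collagen that was added, had a median of 3.03 CPM, and *COL1A2*, the other chain, had 16 counts in all. None of the 6 lists had a called gene with collagen against control, where 0 of all 13092 genes were called, so that this says nothing about the lists.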

How the data were processed

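RNA-seq was performed by the authors on MCF10A cells in 16 libraries, prepared with Illumina TruSeq kits and sequenced as paired ends. The authors aligned reads with STAR to GRCh37 (hg19) and deposited raw counts of reads per gene, without normalization or a filter on low values. The counting tool, the annotation and the use of strand are not given in the sources used here. The authors removed collagen replicate 3 after principal component analysis.

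The deposited labels gave the groups, and the study's methods the doses and times. The 7 members, the gene lists and the alternatives were chosen with earlier results of these data known. The fits used edgeR 4.0.16 under R 4.3.3 on the counts (TMM, filterByExpr by group, robust glmQLFit and glmQLFTest) and Benjamini-Hochberg adjustment over all genes tested, with a threshold of 0.05. Collagen was compared with control in 7 libraries. Both inhibitors were compared with collagen, and with each other, in one fit of 11 libraries, and with control in one fit of 12 libraries. The biological coefficient of variation was 0.353, 0.287 and 0.31 in these fits. DESeq2 1.42.0, other scaling, filters and samples, a replicate block, removal of a spline of log2 CPM on transcript length (4 degrees of freedom) and leaving out each library were alternatives. Adjusted p-values that DESeq2 gave as NA were kept as NA.

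Depth of 12184619 to 44332378 counts per library sets the precision of low genes, and no pair of replicates agreed within sampling noise (lowest chi-square per degree of freedom 18.7). Positions and lengths of all 7 members were read from GENCODE on GRCh37 (a lifted annotation), and promoter windows from RefSeq on GRCh38.p14, with no conversion between builds. Of 26475 table entries, 23921 were matched to gene symbols, 1315 of them through older symbols.

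The genes named were all members, at most 2 called genes of smallest adjusted p from each list and comparison, and the 3 genes most correlated with each member (prior count 2). The lists were other collagen-binding receptors, other alpha and beta subunits, integrin activators and adaptors, DDR1 partners and proteases, collagens and cell type markers. The test was checked on simulated counts before use. Figures were drawn with Python 3.11.15 and matplotlib 3.10.9. The organoid RNA-seq of the study was not analysed here, and protein sequences were not used here.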

Additional observations from a re-analysis of the deposited data

Results flagged for a closer look

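Within groups of 4 libraries, the gap from an extreme library to its neighbour was divided by the range of the group and read against Dixon's critical value for 4 samples. Of 24 sets of values examined 4 passed, where chance gives about 1 in 20, or 1.2 of 24. *DDR1* in collagen replicate 3, the library the authors removed, was the highest of its group (ratio 0.85), with 151 CPM against 127 to 130.1 CPM in the others. *ITGB1* in control replicate 4 was the highest of its group (ratio 0.875, 544 CPM), and in RUNXi replicate 3 it was the lowest (ratio 0.901, 432 CPM). Total counts of the collagen group had a ratio of 0.896, with replicate 1 the shallowest at 17570707. The low values of collagen replicate 4 did not pass this limit for any member; its ratio was 0.775 for *ITGA2* and 0.658 for *ITGB1*.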

How the results depend on the processing

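The number of members called depended on the processing in the comparisons that use the collagen libraries. For RUNXi against collagen, where 1 member was called, 0 were called with collagen replicate 3 included, with the length trend removed, and with both changes. With replicate 3 included and replicate 4 left out, a choice made after seeing the data as was the one before, 0 were called as well. DESeq2 and robust fitting off gave 2, no filter on low counts gave 3, and leaving out single libraries gave 0 to 2. For DDR1i against collagen, where none was called, DESeq2 and no filter gave 2, and leaving out single libraries gave 0 to 2. For collagen against control, no filter gave 1, *ITGB1* (-0.51, adjusted p = 0.0346, edgeR), and leaving out single libraries gave 0, as it did over all genes. Under every alternative run, 0 members were called between the inhibitors and with either inhibitor against control.

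Same-numbered replicates deviated together in 7 of 21 pairs (correlation over 0.1, median 0.0726, range -0.0925 to 0.276), so that the numbers were not taken as a pairing. The 7 hold all 6 pairs of replicate 4 (0.161 to 0.276) and 1 of the 15 others, beside 3 of 63 pairs with different numbers. With the replicate block, RUNXi against collagen gave 2 members called, *ITGA2* (0.82, adjusted p = 0.0326) and *ITGA10* (1.25, adjusted p = 0.00576, edgeR), and 2 with the length trend removed as well, added after seeing the data. The block gave 0 members in every other comparison, and 537, 759 and 154 genes in all for DDR1i against collagen, RUNXi against collagen and DDR1i against RUNXi.

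Signs turned only for values within their error of 0, none of them called. In DDR1i against collagen these were *ITGA1* (-0.20 with the length trend removed, -0.19 with collagen replicate 3 as well, -0.13 with the block as well, and -0.09 with replicate 3 in and replicate 4 out) and *DDR1* (-0.10 to 0.04 as libraries were left out). Against control with DDR1i, *ITGA10* was -0.10 and *ITGB1* -0.02 with the length trend removed, *ITGB1* was -0.01 with the block as well, and *ITGA10* ran from -0.26 without control replicate 4 to 0.20 as libraries were left out. Against control with RUNXi, *ITGB1* was -0.04 with the length trend removed, with or without the block, *ITGA1* was 0.01 with the block and -0.25 to 0.14 without single libraries, and *DDR1* was -0.11 to 0.02. Between the inhibitors, *ITGA2* ran from -0.20 to 0.00 and *ITGB1* from 0.00 to 0.13 as libraries were left out.

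*DDR2* and *ITGA11* did not pass the filter on low counts in the main fits. Without it, and for *DDR2* without collagen replicate 2 or 4, they were fitted and called in no comparison (lowest adjusted p = 0.195, edgeR). A protein comparison that had been planned was not run. Where a call changed, the cause was not tested.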
